A study of Mus musculus with 74 samples.

Results

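Sphingolipid metabolism was followed through 9 genes, which are 9 of the 24851 genes in the deposited RNA tables: the receptors S1pr1 and S1pr2, the kinases Sphk1 and Sphk2, the synthases Sgms1 and Sgms2, the lyase Sgpl1, the sphingomyelinase Smpd1 and the ceramidase Asah1. The members were picked by name, and partly selected on measured values, because the fall of S1pr1 in RAW264.7 cells at 120 min against 0 min was already known when they were listed. That contrast is therefore given for every member as a description, and no p is given for a comparison of S1pr1 with RAW264.7 libraries on either side. The spread behind the S1pr1 p-values of lines 264 and 3205 was estimated over all libraries of a table, RAW264.7 included.

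The cells were RAW264.7, a mouse macrophage-like line, and the derived lines 264 and 3205, each at 0, 60 and 120 min of lipopolysaccharide (LPS), with 2 libraries per group and 18 in all. The series describes wild type and hypomorphic RAW264.7 lines and CRISPR lines without both H3.3 genes, H3f3a and H3f3b, and the sources used here do not say which of these 264 and 3205 are, whether each is 1 clone, or which LPS dose the lines received. The libraries carry a tissue label of bone marrow derived macrophage beside a source of RAW264.7. H3f3a stood at 2055 to 3109 normalized reads (reads divided by the authors' size factor of the library) in RAW264.7, 172 to 236 in line 264 and 37.5 to 76.2 in line 3205, and H3f3b at 13623 to 34155, 5642 to 17765 and 7177 to 13284. Nothing says that the 2 libraries of a group came from separate cultures, so a p-value here measures only how far such pairs lie apart, and that distance may be technical.

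Ceramide is the hub of the pathway. Sphingomyelin synthases turn it into sphingomyelin, sphingomyelinases release it again, and ceramidases split it into a fatty acid and sphingosine. Sphingosine kinases phosphorylate sphingosine to sphingosine 1-phosphate, a ligand of the receptors encoded by S1pr1 and S1pr2 that macrophages and lymphocytes read as a positional cue, and the lyase ends the pathway by cleaving it.

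Promoters are shown for S1pr2 and Sgms2, members with a RefSeq promoter entry whose RNA moved between 60 and 120 min in RAW264.7. The windows are the 250 bases before an annotated start (RefSeq, GRCm38.p6), minus strand, written 5′ to 3′, with motif matches in capitals. S1pr2 has 1 start in the table, at chr9:20976794-20977043, and the capitals mark the cyclic AMP response element TGACGTCA. The furthest upstream of the 6 Sgms2 starts has its window at chr3:131491444-131491693 and holds no match.
S1pr2: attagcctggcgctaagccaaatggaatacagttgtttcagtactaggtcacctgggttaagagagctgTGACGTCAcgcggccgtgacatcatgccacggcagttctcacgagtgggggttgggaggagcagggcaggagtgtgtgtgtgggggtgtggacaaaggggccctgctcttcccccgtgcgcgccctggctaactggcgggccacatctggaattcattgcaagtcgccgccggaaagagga
Sgms2, start 1: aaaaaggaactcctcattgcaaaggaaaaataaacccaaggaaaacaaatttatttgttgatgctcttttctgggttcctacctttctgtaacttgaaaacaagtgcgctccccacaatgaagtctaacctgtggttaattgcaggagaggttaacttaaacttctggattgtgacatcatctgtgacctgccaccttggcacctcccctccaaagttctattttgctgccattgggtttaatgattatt
The next Sgms2 windows hold the AP-1 motif TGANTCA, shown with 10 bases on each side, at chr3:131490783-131490809 and chr3:131490390-131490416.
Sgms2, start 2: caccacccctTGAGTCAgcgggtgccc
Sgms2, start 3: gggcccggggTGAGTCAcggctgggag
Of all 32851 windows of 250 bases in the table, 1.55% held TGACGTCA, 6.75% TGANTCA, 7.13% the interferon response motif TTCNNTTTC and 3.90% the NF-kB consensus, counting both strands. The windows printed hold no overlapping matches, and of the 20 windows of the 7 members in the table none held the NF-kB consensus. The AP-1 motif also stood in windows of Sphk1 (starts 2 and 3, the same site) and Sgms1 (start 4). The interferon response motif stood in windows of Sphk1 (starts 4 and 5, the same site) and Sgms1 (start 1). S1pr1 and Asah1 have no entry. A match describes the letters and is no evidence of binding.

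Depth ran from 13084927 to 53860392 reads per library, and replicates correlated at Pearson r 0.978 to 0.987 across genes. The 7 macrophage markers in the table (of 8 listed) were led by Lyz2 and summed to 347659 to 461150 normalized reads in RAW264.7, against 120145 to 194049 (line 264) and 181859 to 241325 (line 3205), with Mrc1 at 0 to 4.55 in line 264. Fcgr1 went the other way and was higher in every library of lines 264 and 3205 than in RAW264.7. The 0 min values of the 60 and 120 min tables differed by at most 0.0469. Comparisons of a time or line share their 0 min or RAW264.7 libraries, so they are not independent of each other. Values below are normalized reads, replicate 1 then replicate 2 where joined by 'and' and the lower then the higher where joined by 'to', and changes are limma log2 fold changes ± SE on log2(value + 1), with n = 2 libraries per group. A call is a Benjamini-Hochberg adjusted p below 0.05 over all genes tested. Levels are compared between samples only, never between genes, since no transcript lengths were used. In bulk RNA, fewer cells with a transcript and less of it per cell cannot be told apart.

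S1pr1 encodes the high-affinity sphingosine 1-phosphate receptor known for lymphocyte egress and endothelial barrier function, and lies at chr3:115710433-115715055 (RefSeq, GRCm38.p6, also for the other genes). Its RNA was lower after LPS in RAW264.7 and fell in line 264, while line 3205 held far more of it than both. In RAW264.7 it stood at 413 and 311 before LPS, 148 and 124 at 60 min, and 10.7 and 11.4 at 120 min, with no overlap between times. Those values give a log2 change of -1.39 ± 0.21 at 60 min and -4.90 ± 0.41 at 120 min. Line 264 started lower, at 117 and 84.7, and stood at 38.9 and 49.2 at 60 min and 7.86 and 24.5 at 120 min. Again the 3 times did not overlap. The log2 change in line 264 was -1.17 ± 0.21 at 60 min (limma adjusted p = 0.028) and -2.75 ± 0.41 at 120 min (limma adjusted p = 0.0043). The 60 min call was lost in limma without the intensity trend (adjusted p = 0.070), with all 18 libraries in 1 fit (0.23), with only those 4 libraries (0.61) and without line 264 0 min replicate 1 (0.22), 60 min replicate 1 (0.21) or 60 min replicate 2 (0.073). The 120 min call held without each library in turn (adjusted p 0.00039 to 0.045), and was lost when only those 4 libraries were fitted (0.11). From 60 to 120 min line 264 changed by a further -1.58 ± 0.36 (limma adjusted p = 0.043), a call kept only without 120 min replicate 2 (0.0012; 0.14 to 0.26 without another). The same step was -3.51 ± 0.36 in RAW264.7 and -0.31 ± 0.36 in line 3205.

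**Figure D1:**
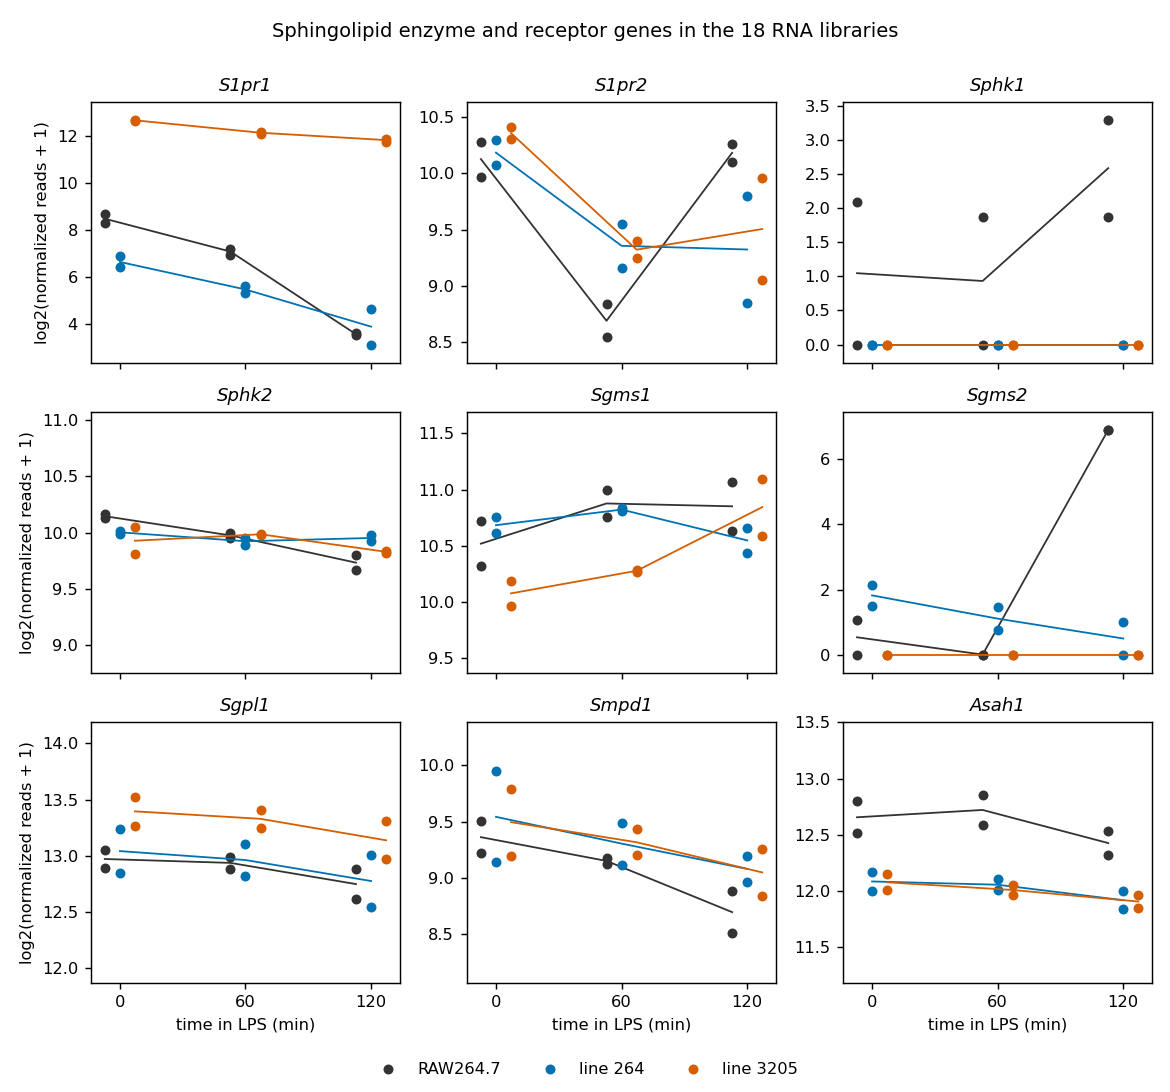
Each panel plots 1 gene, with minutes in LPS on the x axis and log2(normalized reads + 1) on the y axis, whose range differs between panels. Points are single libraries and lines join the means of 2 on this scale. S1pr1 of line 3205 lies above every other library, and Sgms2 stands up only in the 2 RAW264.7 libraries at 120 min.

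In line 3205 S1pr1 stood at 6644 and 6361 before LPS, 4408 and 4612 at 60 min and 3463 and 3803 at 120 min. Every one of these 6 libraries was above every library of the other lines. The 3 times did not overlap in line 3205 either, yet the limma changes of -0.53 ± 0.21 (adjusted p = 0.55) and -0.84 ± 0.41 (adjusted p = 0.35) were not calls. At 120 min DESeq2 gave an adjusted p of 0.0095, and edgeR with a replicate block 0.019. Line 3205 exceeded line 264 by log2 6.01 ± 0.21 at 0 min, 6.65 ± 0.21 at 60 min and 7.92 ± 0.41 at 120 min. The limma adjusted p of these comparisons, added after the data were seen, was 4.9e-07, 2.9e-07 and 3.4e-06, and 0.00094, 0.00051 and 0.0048 with only the groups compared in the fit. The log2 differences of line 3205 from RAW264.7 were 4.18 ± 0.21, 5.04 ± 0.21 and 8.24 ± 0.41. Those of line 264 were -1.84 ± 0.21, -1.61 ± 0.21 and 0.32 ± 0.41. At 120 min the RAW264.7 pair lay between the replicates of line 264, on 17 and 28 reads in all, and these were the only neighbouring groups in the order of S1pr1 levels that overlapped. The log2 change at 120 min was 4.06 ± 0.58 higher (a smaller decrease) in line 3205 than in RAW264.7, and 2.16 ± 0.58 higher in line 264.

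Of the markers of other cell types, Pecam1 and Cd79b stood higher in every library of line 3205 than in those of the other lines. Pecam1, an endothelial adhesion molecule, was 53.5 to 138 normalized reads there, 5.89 to 30.6 in line 264 and at most 5.44 in RAW264.7. The 5 endothelial markers summed to 103 to 227 in line 3205, overlapping the 48.1 to 106 of line 264, and to 17.7 to 26.1 in RAW264.7. Among them Cdh5 was 30.0 to 43.0 in line 3205 and 27.5 to 46.5 in line 264, and Tek at most 0.694 and 0.910 to 7.34. The 4 B cell markers in the table summed to 22.2 to 152 in line 3205 against at most 6.11 elsewhere, of which Cd79b was 20.1 to 148, while Cd79a, Ms4a1 and Pax5 were at most 3.12, 3.42 and 0.661. T and NK cell markers (3 of 6 in the table) summed to at most 13.7, fibroblast markers to 3.48 and epithelial markers to 1.39. Their part in the S1pr1 level was not tested.

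By Pearson r of log2(value + 1) over the 12 libraries of the 120 min table, the genes nearest to S1pr1 were March8 (0.98), C2cd2 (0.97) and Dnal4 (0.97), among 10071 genes with a mean of at least 50. These points share lines and libraries, so r is a description. The levels of March8 ran from a group mean of 3182 in RAW264.7 at 120 min to 4734 in line 3205 at 0 min.

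S1pr2 encodes a receptor coupled to different G proteins and known for restraining migration. Its RNA was lower at 60 than at 0 min in all 3 lines, without overlap. By limma this was a call in RAW264.7 and line 3205 but not in line 264. The 60 min response differed from that of RAW264.7 by log2 0.61 ± 0.26 in line 264 and 0.40 ± 0.26 in line 3205. Neither difference in response was a call, while the level at 60 min was a call against RAW264.7 in both lines, as given below. In RAW264.7 the RNA rose again by 120 min. The gene lies at chr9:20965952-20976793 on the minus strand. In RAW264.7 it went from 1244 and 1003 at 0 min to 456 and 372 at 60 min, and stood at 1228 and 1098 at 120 min. The 60 min libraries lay below all others of the line, and the 0 and 120 min ranges overlapped. The change was log2 -1.44 ± 0.18 at 60 min (limma adjusted p = 0.0021; at most 0.032 without any 1 of the 4 libraries), then 0.06 ± 0.33 at 120 min against 0 min. From 60 to 120 min it rose by log2 1.49 ± 0.31 (limma adjusted p = 0.010, a comparison added after the data were seen). That call was lost without RAW264.7 60 min replicate 2 (0.098) or 120 min replicate 1 (0.085).

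Line 264 had 1254 and 1077 S1pr2 reads before LPS, 751 and 570 at 60 min and 890 and 460 at 120 min. Line 3205 had 1262 and 1362, then 606 and 674, then 993 and 531. In both lines the stimulated libraries lay below the unstimulated ones at each time, and the 60 and 120 min ranges overlapped. At 60 min the change was log2 -1.04 ± 0.18 in line 3205 (limma adjusted p = 0.024), a call lost without any 1 of the 4 libraries (0.11 to 0.21). In line 264 it was -0.83 ± 0.18 (limma adjusted p = 0.075, and 0.011 with a replicate block). At 120 min it was -0.86 ± 0.33 in line 264 (limma adjusted p = 0.20, block 0.031) and -0.85 ± 0.33 in line 3205 (0.22, block 0.036). At 60 min S1pr2 stood above RAW264.7 in line 264 (log2 0.67 ± 0.18, limma adjusted p = 0.034) and in line 3205 (0.63 ± 0.18, 0.043). The call in line 3205 was lost without any 1 library (0.068 to 0.24), and that in line 264 without 3 of 4, line 264 60 min replicate 2 being the exception (0.033). Against RAW264.7 at 120 min S1pr2 differed by -0.86 ± 0.33 in line 264 (limma adjusted p = 0.13, block 0.021) and -0.68 ± 0.33 in line 3205 (0.23). The difference in the response at 120 min was -0.92 ± 0.47 for line 264 and -0.91 ± 0.47 for line 3205, and neither was a call (limma adjusted p = 1.0 in both).

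Of the other receptor genes, S1pr3 and S1pr5 stood at or near 0 (at most 0.864 and 1.26 normalized reads in any library) and S1pr4 at 1.16 to 7.70. S1pr4, the 1 of the 3 that could be tested, was not a call in any LPS comparison.

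**Figure D2:**
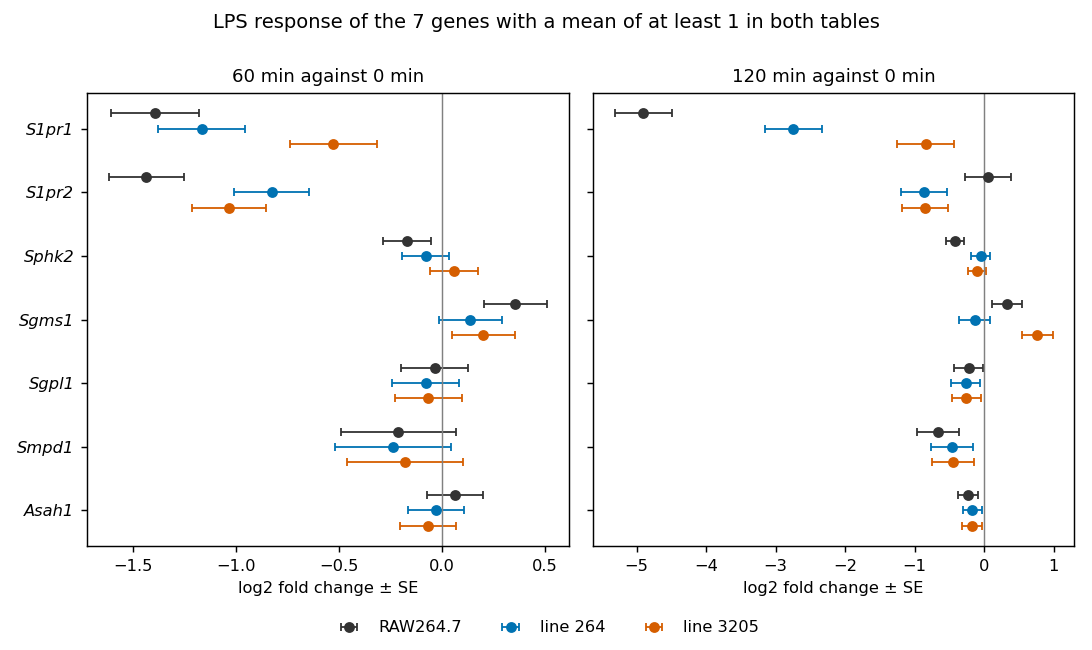
Points are limma log2 fold changes of each line against its own 0 min libraries (x axis) for the 7 genes tested in both tables (y axis), and bars are 1 SE. S1pr1 at 120 min runs from -4.90 in RAW264.7 through -2.75 in line 264 to -0.84 in line 3205, and S1pr2 at 120 min is 0.06 in RAW264.7 and -0.86 and -0.85 in lines 264 and 3205.

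Sgms2 encodes the sphingomyelin synthase of the plasma membrane, and it was read in quantity only in RAW264.7 at 120 min. The gene lies at chr3:131318985-131491443. Those libraries had 118.5 and 119.9 normalized reads (184 reads over both), against 1 read in the 0 min and none in the 60 min libraries. Line 264 had 6, 3 and 1 reads over its pairs at 0, 60 and 120 min, and line 3205 had 0 at every time. A count of 0 allows up to 3 reads, which is 1.0 normalized reads for line 3205 at 120 min. RAW264.7 at 120 min stood 213-fold above its 0 min level (95% counting interval 37.7 to 8439) and at least 41.8-fold above its 60 min level. It was 219-fold above line 264 (38.8 to 8695) and at least 119-fold above line 3205 at 120 min. These intervals and floors cover counting error only. Sgms2 passed the filter (a mean of at least 1) in the 120 min table only through the group where it was high, so its calls add nothing to these ratios. Nearest to Sgms2 by r over 12 libraries were Atp9b (0.95), Myo1g (0.93) and Tmco3 (0.90). This ranking rests on the RAW264.7 libraries at 120 min, where alone Sgms2 was high. Atp9b had group means of 2525 at 0 min and 3492 at 120 min in RAW264.7.

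Its relative Sgms1, the Golgi synthase, was present throughout. RAW264.7 had 1278 to 1684 at 0 min, 1729 to 2044 at 60 min and 1591 to 2146 at 120 min, and line 264 stood between 1388 and 1831 in all 6 libraries. Line 3205 had 1002 to 1164 before LPS, 1235 to 1248 at 60 min and 1542 to 2192 at 120 min, with no overlap between times. Its change at 120 min was log2 0.77 ± 0.22 (limma adjusted p = 0.086, and 0.0016 with a replicate block). From 60 to 120 min it was 0.57 ± 0.19 (limma adjusted p = 0.21, block 0.011). Unstimulated line 3205 stood below line 264 (log2 -0.61 ± 0.15, limma adjusted p = 0.034), and at 60 min below RAW264.7 (-0.60 ± 0.15, limma adjusted p = 0.026). The first call was lost without 3 of the 4 libraries, line 3205 0 min replicate 1 being the exception (0.049), and the second without any of them (0.050 to 0.18). With a replicate block the lower level of line 3205 was also a call against RAW264.7 at 0 min (-0.44 ± 0.15, 0.091 without and 0.013 with the block) and against line 264 at 60 min (-0.54 ± 0.15, 0.053 and 0.0052). At 120 min lines 3205 and RAW264.7 differed by -0.01 ± 0.22.

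Sphk1, the inducible cytosolic sphingosine kinase, was near the limit of detection. The gene lies at chr11:116530836-116536675. RAW264.7 had 3 reads at 0 min, 1 at 60 min and 9 at 120 min, and no library of line 264 or line 3205 had any. The RAW264.7 ratio of 120 to 0 min was 3.47 with a counting interval of 0.865 to 19.9. RAW264.7 at 120 min was at least 3.57-fold above line 264 and at least 5.81-fold above line 3205. Limma adjusted p for these was 0.044 and 0.043, edgeR gave 0.18 and 0.12, leaving out 1 library gave 0.054 to 0.16 in the 3 cases where Sphk1 was still tested (without RAW264.7 120 min replicate 2 it was not), and Sphk1 too passed the filter only through the higher group. The genes nearest in pattern were Lpar1 (r = 0.88), Rasa1 (0.88) and Kcna3 (0.86), a ranking that rests on few Sphk1 reads.

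Sphk2, the kinase found in nucleus and mitochondria, kept a narrow range of 812 to 1149 over all 18 libraries. In RAW264.7 the 120 min libraries (812 to 891) lay below the 0 min ones (1117 to 1149), a change of -0.41 ± 0.13. In lines 264 and 3205 the changes at both times lay between -0.10 and 0.06, and none was a call. The 120 min response differed from that of RAW264.7 by 0.36 ± 0.19 in line 264 and 0.31 ± 0.19 in line 3205, and neither was a call.

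Asah1, the lysosomal acid ceramidase, stood lower in both derived lines than in RAW264.7 at every time. The gene lies at chr8:41340646-41397644. RAW264.7 ranged from 5854 to 7123 at 0 min, 6165 to 7403 at 60 min and 5127 to 5919 at 120 min. Line 264 ranged from 3668 to 4613 and line 3205 from 3690 to 4541 over their 6 libraries, all below the lowest RAW264.7 library. In line 264 the difference was log2 -0.57 ± 0.14, -0.66 ± 0.14 and -0.51 ± 0.14 at 0, 60 and 120 min (limma adjusted p = 0.021, 0.0091 and 0.043). For line 3205 it was -0.58 ± 0.14, -0.71 ± 0.14 and -0.52 ± 0.14 (limma adjusted p = 0.020, 0.0065 and 0.038). Both 120 min calls were lost in edgeR (adjusted p = 0.060 and 0.063) and without any 1 library (0.073 to 0.27 and 0.068 to 0.25). At 0 min both were lost without RAW264.7 replicate 1 (0.18 and 0.16), line 264 also without its replicate 2 (0.12) and line 3205 without its replicate 1 (0.091). At 60 min both were lost without RAW264.7 replicate 1 (0.089 and 0.066) or the line's own replicate 2 (0.071 and 0.056). The summed macrophage markers, led by Lyz2, were also lower in both lines than in every RAW264.7 library. Lyz2 stood at 202009 to 294095 normalized reads in RAW264.7, against 38736 to 66339 (line 264) and 71652 to 120892 (line 3205). Fcgr1 went the other way, at 1512 to 3320 in RAW264.7, 3793 to 7041 in line 264 and 3751 to 7839 in line 3205. The ranges of Csf1r, Itgam and Cd14 in both lines overlapped those of RAW264.7. The part of these markers in the Asah1 difference was not tested. Lines 3205 and 264 differed by -0.01 ± 0.14, -0.05 ± 0.14 and -0.01 ± 0.14. Against 0 min no Asah1 change exceeded -0.23 ± 0.14, and none was a call in lines 264 and 3205. From 60 to 120 min RAW264.7 changed by -0.29 ± 0.13 (limma adjusted p = 0.24, block 0.043).

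**Figure D3:**
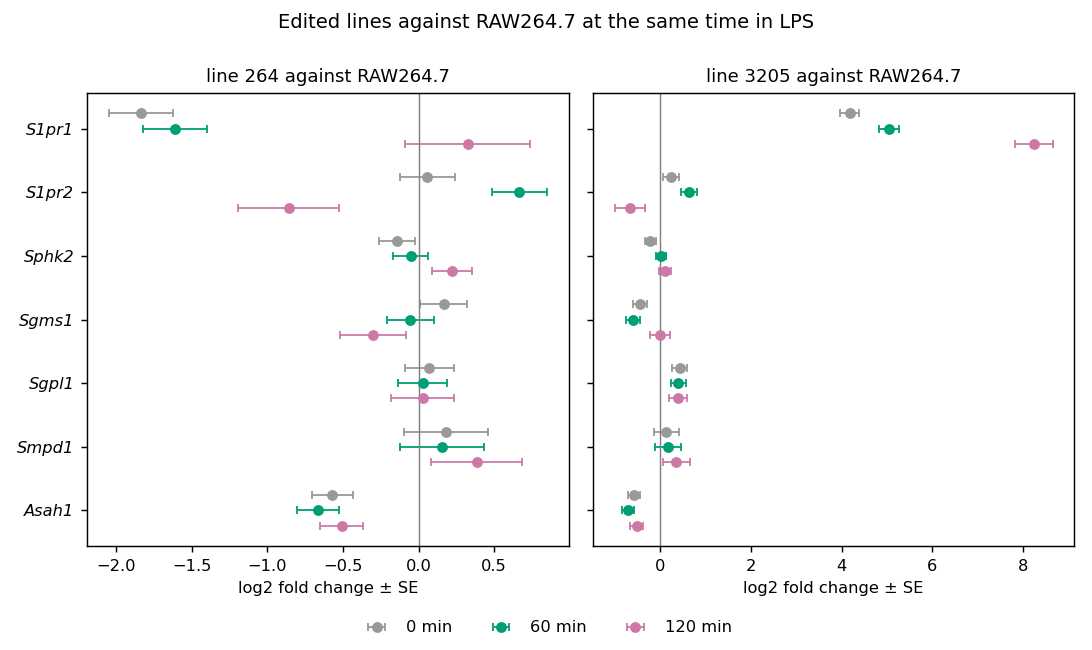
Points are limma log2 fold changes of line 264 (left) and line 3205 (right) against RAW264.7 at the same time (x axis, whose range differs between panels) for 7 genes (y axis), and bars are 1 SE. Asah1 lies between -0.71 and -0.51 in all 6 comparisons, and S1pr1 lies on opposite sides of 0 in the 2 lines at 0 and 60 min.

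Sgpl1, which encodes the lyase that breaks sphingosine 1-phosphate down, ranged from 5972 to 11791, and Smpd1, the lysosomal acid sphingomyelinase, from 364 to 986. By limma without a block neither was a call, leaving aside RAW264.7 at 120 against 0 min, which has no p here. In line 3205 Sgpl1 stood above RAW264.7 without overlap at each time (log2 0.42 ± 0.16, 0.39 ± 0.16 and 0.39 ± 0.21; limma adjusted p = 0.13, 0.15 and 0.28, and 0.0062, 0.0089 and 0.012 with a replicate block). Against line 264 the differences were 0.35 ± 0.16, 0.37 ± 0.16 and 0.36 ± 0.21 (block 0.019, 0.016 and 0.022), none a call without the block. The ranges of these 2 lines overlapped at 120 min (8029 to 10141 in line 3205 and 5972 to 8253 in line 264). For Smpd1 the RAW264.7 change at 120 min was -0.67 ± 0.30, from a range of 594 to 726 at 0 min to one of 364 to 470, without overlap. Its changes in lines 264 and 3205 at 120 min were -0.46 ± 0.30 and -0.45 ± 0.30, with overlapping ranges in both. These responses differed from that of RAW264.7 by 0.20 ± 0.43 and 0.22 ± 0.43, and neither was a call.

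Counts of calls are given over the 7 members tested in both tables or, where RAW264.7 libraries are compared, over the 6 without S1pr1. Beside them stands the share of all genes called by limma without a block. Counts from other fits, or at an unadjusted p, have no matching share here. For LPS at 60 min they were 1 of 6 in RAW264.7 (S1pr2; 2.98% of all genes), 1 of 7 in line 264 (S1pr1; 1.19%) and 1 of 7 in line 3205 (S1pr2; 1.23%). At 120 min no count is read in RAW264.7 (10.6%), where the contrast took part in the choice, and the counts were 1 of 7 in line 264 (S1pr1; 5.43%) and 0 of 7 in line 3205 (5.03%). Beside that limma count of 0, 2 had an unadjusted p under 0.05, and the count was 2 with a replicate block, 0 in edgeR, 3 in edgeR with the block and 2 in DESeq2. Line 264 differed from RAW264.7 at 1, 2 and 1 of the 6 at 0, 60 and 120 min (13.2%, 15.3% and 13.5% of all genes), Asah1 each time and S1pr2 at 60 min, and at 2 at 120 min with the block. Line 3205 differed at 1, 3 and 1 (14.3%, 15.4% and 13.9%), Asah1 each time with S1pr2 and Sgms1 at 60 min, and at 3, 4 and 2 with the block. Sphk1 and Sgms2 are left out of these 120 min counts because they passed the filter only through RAW264.7. Differences between responses gave 0 of 6 in each by limma, with and without the block, and in edgeR and DESeq2. An unadjusted p under 0.05 was found for 1 member in line 264 at 60 min and for 0 in the others. Of all genes 0.0173% and 0.0229% were called for line 264 and 0.00578% and 0.00573% for line 3205 at 60 and 120 min. Line 3205 differed from line 264 at 2, 1 and 1 of 7 (10.4%, 10.2% and 9%), and at 3, 3 and 2 with the block. From 60 to 120 min RAW264.7 had 1 call of 6 (S1pr2; 7.3%), or 2 with the block, and line 264 had 1 of 7 (S1pr1; 2.29%). Line 3205 had 0 of 7 by limma (2.27%), where 1 had an unadjusted p under 0.05, edgeR and DESeq2 called 0 and the block 1. The median log2 change of the 7 was -0.08 in line 264 and -0.07 in line 3205 at 60 min and -0.27 and -0.26 at 120 min, and that of all genes lay between -0.03 and 0.

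A wider set of 66 sphingolipid gene symbols in 6 lists, 57 of them in the table and 52 tested, shows what the rest of the pathway did. Some genes are listed under both an older and a newer symbol, so the 66 hold fewer genes than symbols. At 60 min limma called 0 of the 52 in RAW264.7, line 264 and line 3205, beside 2.98%, 1.19% and 1.23% of all genes. An unadjusted p under 0.05 was found for 5, 2 and 4. Some unchanged genes also reach that limit and the share of all genes is not given, so these counts are not read as a response. At that time edgeR called 0 in each, DESeq2 2, 0 and 1, and limma with a replicate block 5, 1 and 3, also without a matching share. At 120 min 3 rose and 5 fell in RAW264.7, 2 rose and 3 fell in line 264, and 3 rose and 3 fell in line 3205. These 8, 5 and 6 calls are 15.4%, 9.62% and 11.5% of the 52, beside 10.6%, 5.43% and 5.03% of all genes. They became 15, 10 and 8 with the block, which has no matching share of all genes here. The median of the 52 was -0.15, -0.11 and -0.13. Called in every line at 120 min were 4 genes. Sgpp1, a phosphatase of sphingosine 1-phosphate, fell by 1.4 ± 0.15, 0.96 ± 0.15 and 1.18 ± 0.15 on the log2 scale in RAW264.7, line 264 and line 3205. Cerk, which phosphorylates ceramide, fell by 0.94 ± 0.13, 0.59 ± 0.13 and 0.68 ± 0.13, and Kdsr, a reductase early in ceramide synthesis, by 1.03 ± 0.23, 1.02 ± 0.23 and 0.94 ± 0.23. Ugcg, the glucosylceramide synthase, rose by 0.76 ± 0.12, 0.53 ± 0.12 and 0.95 ± 0.12. By limma the adjusted p of Sgpp1 was 0.00042, 0.0056 and 0.0019 and that of Ugcg 0.0036, 0.036 and 0.0018. For Cerk it was 0.0018, 0.030 and 0.016, and for Kdsr 0.019, 0.033 and 0.047.

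Sgpp1 in RAW264.7 stood at 2368 to 2737 at 0 min and at 956 to 973 at 120 min, and in line 3205 at 1438 to 1680 and at 687 in both libraries. Those calls, with Cerk in RAW264.7 and Ugcg in RAW264.7 and line 3205, held without each library in turn. With only the groups compared, however, the calls of Sgpp1, Cerk, Kdsr and Ugcg in lines 264 and 3205 were all lost. Without the trend those of Cerk and Kdsr in both lines and of Ugcg in line 264 were lost. Sgpp1 in line 264 was lost without its 0 min replicate 1 or 120 min replicate 1 (0.053 each). Cerk and Ugcg in line 264 (0.076 to 0.19 and 0.10 to 0.20) and Kdsr in RAW264.7 (0.093 to 0.13) were lost without any 1 library. Cerk in line 3205 and Kdsr in lines 264 and 3205 were lost without 3 of 4, the line's own 0 min replicate 2 being the exception. Degs1, the dihydroceramide desaturase, rose in lines 264 (0.77 ± 0.14, limma adjusted p = 0.012) and 3205 (0.60 ± 0.14, 0.039). With only the groups compared Degs1 was lost in both lines. In line 264 it was lost without 0 min replicate 1 (0.10) or 120 min replicate 2 (0.086), and in line 3205 without any 1 library (0.057 to 0.22). In the differences between responses limma called 0 of the 52 each time (0 to 3 at an unadjusted p under 0.05), DESeq2 and edgeR 0, and edgeR with the block 0 or 1.

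**Figure D4:**
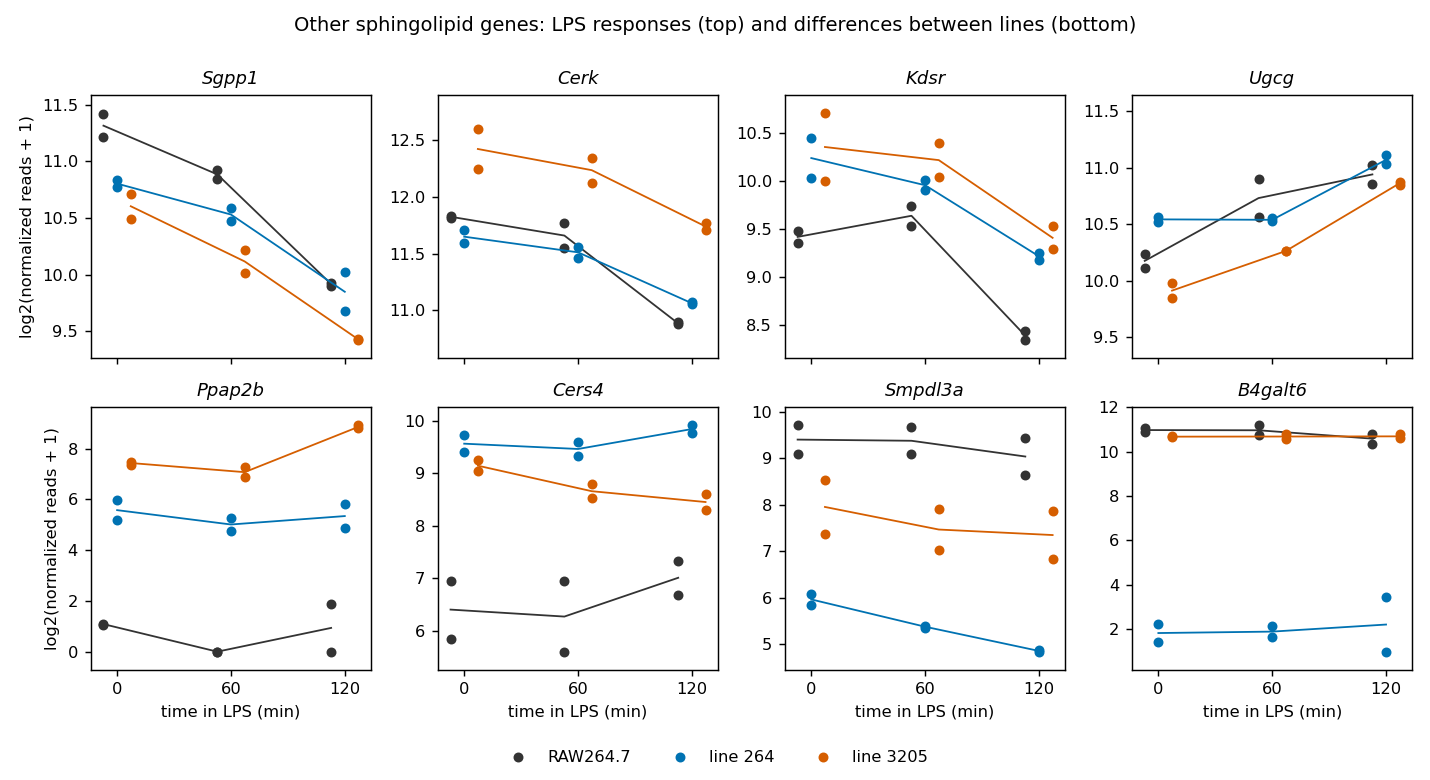
Panels plot log2(normalized reads + 1) (y axis, range differing between panels) against minutes in LPS (x axis) for 8 listed sphingolipid genes, with points for libraries and lines joining means of 2. Sgpp1, Cerk and Kdsr end lower and Ugcg higher at 120 min in every line, and Ppap2b stands at 0 to 2.66 normalized reads in RAW264.7 and at 116 to 486 in line 3205.

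Line 264 differed from RAW264.7 at 15, 14 and 14 of the 52 at 0, 60 and 120 min (28.8%, 26.9% and 26.9%, beside 13.2%, 15.3% and 13.5% of all genes), and line 3205 at 11, 8 and 7 (21.2%, 15.4% and 13.5%, beside 14.3%, 15.4% and 13.9%). With the block these counts were 25, 22 and 23, and 17, 19 and 16, and the shares of all genes above do not apply to them. The counts without the block all include Ppap2b, which passed the filter only through the derived lines, where it was high. Leaving Ppap2b aside, Cers4 and Ormdl1, which stood higher, and Smpdl3a, which stood lower, were called in both lines at every time. Ppap2b also stood higher at every time and is described by its reads. Ppap2b encodes a surface lipid phosphatase that dephosphorylates sphingosine 1-phosphate. It had 2, 0 and 2 reads over the RAW264.7 pairs at the 3 times, against 111, 81 and 74 in line 264 and 343, 423 and 1392 in line 3205. It passed the filter only through the derived lines, so its calls add nothing to the ratios. Line 3205 was 152-fold higher at 0 min (counting interval 41.9 to 1264), at least 47.6-fold at 60 min and 359-fold at 120 min (99.2 to 2969). Line 264 was 43.6-fold higher (11.8 to 364.5), at least 10.9-fold and 31.1-fold (8.31 to 261.5).

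Cers4, a ceramide synthase, was 47.5 to 160 in RAW264.7, 643 to 967 in line 264 and 315 to 609 in line 3205, with log2 differences of 3.16 ± 0.44, 3.20 ± 0.44 and 2.84 ± 0.35 and of 2.74 ± 0.44, 2.39 ± 0.44 and 1.44 ± 0.35. Its call in line 3205 at 120 min (limma adjusted p = 0.021) was lost without 3 of 4 libraries (up to 0.14), RAW264.7 120 min replicate 1 being the exception. Smpdl3a, a relative of Smpd1, was 398 to 842 in RAW264.7, 27.5 to 66.4 in line 264 and 113 to 370 in line 3205. The log2 differences were -3.45 ± 0.42, -4.01 ± 0.42 and -4.19 ± 0.46 in line 264 and -1.45 ± 0.42, -1.91 ± 0.42 and -1.69 ± 0.46 in line 3205. Without the trend, without a filter or with only the groups compared, the line 3205 calls at 0 and 120 min were lost. The call at 0 min was also lost in edgeR (adjusted p = 0.056) and with the 0 min columns of the 120 min table. In line 3205 the calls were lost without RAW264.7 replicate 1 (0.27, 0.10 and 0.26) or line 3205 replicate 2 (0.22, 0.11 and 0.24), and at 0 and 120 min without RAW264.7 replicate 2 (0.080 and 0.054). Ormdl1, an inhibitor of the first enzyme of the pathway, was higher by log2 0.64 to 0.96 in line 264 and 1.04 to 1.17 in line 3205. Its 0 min call in line 264 was lost with only the groups compared. In line 264 its calls were lost without the line's replicate 1 (0.13, 0.055 and 0.051), and at 0 min without RAW264.7 replicate 2 (0.15). B4galt6, a lactosylceramide synthase, was near absent in line 264 alone: 6, 7 and 9 reads over its pairs against 1309 to 2334 normalized reads per library in RAW264.7 and 1495 to 1795 in line 3205. RAW264.7 stood 761-fold (349 to 2075), 780-fold (378 to 1944) and 315-fold (166 to 690.0) above line 264.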

How the data were processed

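RNA of 18 libraries was measured. Per the submitters' processing notes, Trim Galore 0.5.0, STAR 2.4.2, mm10 and featureCounts of Subread 1.4.6 were used, with DESeq2 under R 3.4.0. The deposited signal holds gene-level read counts scaled by a library size factor: 100% of values came out whole within 0.1 read (largest distance 0.0682). The test planned for normalized values was therefore used, and count tests ran on the recovered reads as alternatives. Depth was 13084927 to 53860392 reads per library.

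limma 3.58.1 with an intensity trend (R 4.3.3) was fitted to log2(value + 1) across the 12 libraries in a table, 1 table per time, for genes with a mean of at least 1. Comparisons of line 3205 with 264, and of 120 with 60 min, came from the 12 or 18 libraries and were added after the data were seen. Alternatives were limma without trend, filters of none and 10, pseudocounts of 0.5 and 5, a replicate block, TMM scaling, edgeR 4.0.16, DESeq2 1.42.0, only the groups compared, the 0 min columns of the other table and leaving out each library. A fit of all 18 libraries was added later. Scripts were tested on simulated data. Floors are 3 reads over a group, and counting intervals are 95% exact binomial.

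Members and lists were chosen with earlier results of these data known. Named genes were all members, up to 4 per list by smallest adjusted p among calls, and the 3 genes nearest in pattern to S1pr1, Sphk1 and Sgms2 (predicted genes aside). Not every listed gene that the rule allows is printed. Replicate 1 minus 2 correlated between groups at r 0.16 to 0.56 in the 60 min and 0.22 to 0.56 in the 120 min table over 15 pairs of groups. Replicate numbers were therefore taken as pairing in the blocked fits. The planned main fit had no block, and changes printed with an SE come from fits without it. Blocked adjusted p-values stand beside them where they change a call. RAW264.7 at 120 against 0 min, which has no p for members, is the exception. In the 2 deposited tables of primary macrophages (193 and 195 genes) no member is listed. The other 44 of 74 samples were not analysed here. Python 3.11.15 was used for tables and plots.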

Additional observations from a re-analysis of the deposited data

Results flagged for a closer look

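For the Sgms2 response at 120 min, line 264 minus RAW264.7, limma gave log2 -7.70 ± 0.80 (adjusted p = 0.016). It rests on 1 and 184 reads in RAW264.7 at 0 and 120 min and 6 and 1 in line 264, and Sgms2 passed the filter only through RAW264.7 at 120 min, so the call adds nothing to those reads. The adjusted p was 0.33 in edgeR, 0.057 in edgeR with a replicate block, 0.010 in DESeq2 and 0.054 to 0.15 without any 1 of the 8 libraries, and the fold change depends on the pseudocount (-8.88 with 0.5 and -4.96 with 5). Both RAW264.7 libraries were higher at 120 than at 0 min, while the value of line 264 was lower (log2 -1.33 ± 0.57). At 6 reads against 1 that value was not a call (limma adjusted p = 0.25, edgeR 0.41, DESeq2 0.46), and whether the directions differ was not tested beyond the limma value above.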

How the results depend on the processing

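Of 173 changes of members over all comparisons, 56 were calls in limma as reported or under an alternative. Over 2858 alternative values, 118 changed sign, none of them a call as reported, 106 lost and 59 gained a call. Among the 56, S1pr1 in line 264 against RAW264.7 at 120 min (0.32) changed sign, to -0.44 without line 264 120 min replicate 2, and was 1.08 without replicate 1. Of 194 member counts under alternatives other than leaving out a library, 149 stayed within 1.5 times. The cause of the other changes was not tested. Counts here are over all members tested, S1pr1 in RAW264.7 included, whose values took part in the choice. Shares of all genes below are those of limma as reported, so counts under alternatives have no matching share. Few reads limit Sphk1 and Sgms2. The alternative on the primary macrophage tables was not run.

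RAW264.7 at 60 min (1 as reported, S1pr2, beside 2.98% of all genes) gave 1 with a replicate block in limma or edgeR, in edgeR and in DESeq2. S1pr2 was also called with all 18 libraries in 1 fit and without each library in turn. No count is given for RAW264.7 at 120 min, where the contrast took part in the choice. Line 264 at 60 min (1) gave 0 without the trend, with 18 libraries or with only the groups compared, 2 with the block in limma or edgeR and in DESeq2, and 0 to 1 without 1 library. At 120 min (1) it gave 2 with the block in limma or edgeR and 0 with only the groups compared. Line 3205 at 60 min (1) gave 0 without the trend, with 18 libraries, with only the groups compared and without any 1 library. At 120 min (0) it gave 2 with the block, 3 in edgeR with the block, 2 in DESeq2 and 1 with 18 libraries.

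Line 264 against RAW264.7 at 0 min (1, beside 13.2% of all genes) gave 1 with the block, in edgeR and in DESeq2. At 60 min (2, beside 15.3%) each of these gave 2. At 120 min (1, beside 13.5%) the count was 2 with the block, 0 in edgeR and 1 in DESeq2. Line 3205 against RAW264.7 at 0 min (1, beside 14.3%) gave 3 with the block and 1 in edgeR and DESeq2. At 60 min (3, beside 15.4%) it gave 4 with the block and 3 in edgeR and DESeq2. At 120 min (1, beside 13.9%) these were 2, 0 and 1. Counts in edgeR with the block equalled those of limma with the block. Without the trend or with only the groups compared, both lines lost Asah1 at 0 and 120 min and S1pr2 at 60 min. Sgms1 in line 3205 at 60 min was lost without the trend. With 18 libraries the S1pr2 and Sgms1 calls at 60 min were lost. Losses without 1 library are given with each gene in the Results.

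The differences between responses (0 of the 6 in both lines at both times) stayed at 0 with the block, in edgeR with or without the block and in DESeq2. The Sgms2 response of line 264 is described above and is not counted here.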
